A study of Mus musculus with 6 samples.

Results

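The receptors that bind the constant part of IgG, with the adaptors that signal for them, were followed in the adipocyte fraction of mice with and without adipocyte PU.1. The group holds 7 of the 35122 genes counted, listed by name: the activating receptors Fcgr1, Fcgr3 and Fcgr4, the inhibitory receptor Fcgr2b, the adaptor chains Fcer1g and Tyrobp, and Fcgrt, the heavy chain of the neonatal Fc receptor. RNA was sequenced from the floating layer of collagenase-digested epididymal fat of male C57BL/6 mice on a chow diet, with 1 library per mouse. The 3 control mice were PU.1 fl/fl, with loxP sites around 1 exon of Spi1, the gene of PU.1, in an otherwise intact gene. The 3 aPU.1KO mice were AdipoqCre_PU.1 fl/fl and carried in addition a Cre transgene driven by the adiponectin promoter, so that both groups shared the floxed alleles and only the second carried Cre. The controls were Cre-free littermates, and a Cre control without floxed alleles was not analysed here. By their labels the mice were 10 to 11 months old, whereas the study's text describes them as older. Cre from this promoter acts in adipocytes, while the floating layer can also hold other cells that stick to them.

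Fc gamma receptors are the proteins through which macrophages, neutrophils and other leukocytes recognise antibody-coated particles. The activating receptors lack a signalling motif of their own and pair with the FcR gamma chain, made by Fcer1g, whose ITAM (immunoreceptor tyrosine-based activation motif) is phosphorylated by Src family kinases and then recruits the kinase Syk. Fcgr2b instead carries an inhibitory motif, an ITIM, which recruits the phosphatase SHIP1 and dampens the same pathway. Tyrobp, also called DAP12, is the ITAM adaptor of Trem2 and related receptors. Fcgrt belongs to another family: with beta-2 microglobulin it forms FcRn, which rescues IgG and albumin from degradation and is expressed in many tissues. PU.1 is an ETS factor of the myeloid lineage whose binding sites share the core letters GGAA.

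Of the members, 4 lay close together on chromosome 1 of GRCm38: Fcgr2b (170958617 to 170976547, minus strand), Fcgr4 (171018920 to 171029761, plus strand), Fcgr3 (171051174 to 171064935, minus strand) and Fcer1g (171229572 to 171234365, minus strand). Fcgr1 was on chromosome 3 (96282909 to 96293969, minus strand). Tyrobp (30413760 to 30417585, plus strand) and Fcgrt (45092990 to 45103851, minus strand) were both on chromosome 7. All 7 are protein-coding genes.

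Promoter letters are shown because the deleted factor reads the GGAA core and its strongest sites extend it to GAGGAA. RefSeq promoters (GRCm38.p6) were matched for 6 of the 7 members, and of the 2 starts listed for Fcgr3 the first was used. Each line gives, 5′ to 3′ on the gene's own strand, the 60 bases nearest to the RefSeq start that no annotated exon of the gene covers. Capitals mark every GGAA and GAGGAA on either strand, the latter holding the former, so that TTCC and TTCCTC are the same letters read from the opposite strand. Fcgr1 is at chr3:96293970-96294029, Fcgr3 at chr1:171059404-171059463, Fcgr4 at chr1:171018860-171018919, Fcgr2b at chr1:170976128-170976187, Fcer1g at chr1:171234366-171234425 and Fcgrt at chr7:45103852-45103911.
Fcgr1: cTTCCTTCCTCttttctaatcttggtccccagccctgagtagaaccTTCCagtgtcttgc
Fcgr3: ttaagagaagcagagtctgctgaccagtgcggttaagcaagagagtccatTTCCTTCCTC
Fcgr4: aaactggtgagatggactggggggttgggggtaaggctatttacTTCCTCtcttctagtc
Fcgr2b: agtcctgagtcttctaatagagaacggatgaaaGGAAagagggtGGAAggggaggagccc
Fcer1g: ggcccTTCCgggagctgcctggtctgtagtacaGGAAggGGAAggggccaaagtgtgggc
Fcgrt: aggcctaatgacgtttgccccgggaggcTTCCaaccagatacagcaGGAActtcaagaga
The 3 activating receptors each held 1 GAGGAA in the 250 bases upstream of the start, on the reverse strand in every case. Its first base lay 55 bases upstream of the start in Fcgr1, 6 bases upstream in Fcgr3 and 22 bases upstream in Fcgr4. None was found in this window of Fcgr2b, Fcer1g or Fcgrt. Of all 32851 promoters of this length, 23.3% held GAGGAA on either strand. The longer GAGGAAGT was found in Fcgr4 and in 2.44% of all promoters. The core GGAA was found in all 6 promoters, as in 93.4% of all promoters. A match describes letters and not binding, and these data hold no measurement of PU.1 on DNA.

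The targeted gene was read first. Spi1 was at 24.3, 6.35 and 26.7 CPM (counts scaled to a common library total by the TMM method) in control libraries 1, 2 and 3 and at 3.20, 1.22 and 4.17 CPM in aPU.1KO libraries 1, 2 and 3. Its counts cover the whole gene and not the floxed exon alone. Libraries held 20550252 to 24310144 counts, except control library 1 with 69283842. Control library 2 stood apart from the other controls: the summed level of 18 macrophage markers was 572 CPM in it, 2053 and 1968 CPM in control libraries 1 and 3, and 262 to 389 CPM in the aPU.1KO libraries. The libraries held the defining mRNAs of adipocytes, with 10 markers summing to 46620 to 50349 CPM in the controls and to 56118 to 64558 CPM in aPU.1KO. For each member the values are therefore given with and without control library 2. Without it, 5 of the 7 members had an edgeR adjusted p under 0.05, all as lower, against 6.93% of genes called lower and 1.41% called higher in that fit. Each fit without another library called 0 members. Control library 2 was singled out by values that the members other than Fcgrt follow, as it was their lowest control too. Larger differences and smaller p-values without it follow in part from that choice and give no separate support. A group difference is a log2 fold change of aPU.1KO over control from edgeR's quasi-likelihood test, with its standard error (SE) and a p adjusted over the 13925 genes tested by the Benjamini-Hochberg method.

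In the aPU.1KO adipocyte fraction the 3 activating receptors, the inhibitory receptor and both adaptors had lower levels than in that of the controls, by a fitted 2.67-fold for Fcgr2b to 6.36-fold for Fcgr4, while Fcgrt was 1.28-fold higher. No member reached an adjusted p under 0.05 with edgeR. That threshold was passed by 0.18% of all genes as lower and by 0.0575% as higher. At an unadjusted p under 0.05, 6 members were lower and 1 was higher, against 13.7% of all genes lower and 11.9% higher. With DESeq2, the tool named in the methods, all 7 passed an adjusted p of 0.05, 6 as lower and 1 as higher, against 7.48% and 3.51% of the 16684 genes with an adjusted p. In 5 members every aPU.1KO library lay below every control library, in Fcgrt every one lay above, and in Fcgr4 the groups overlapped. Such separation held for 15.5% of all genes downward and 16.7% upward. In bulk RNA, fewer cells of a type and less RNA per cell cannot be told apart.

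**Figure D1:**
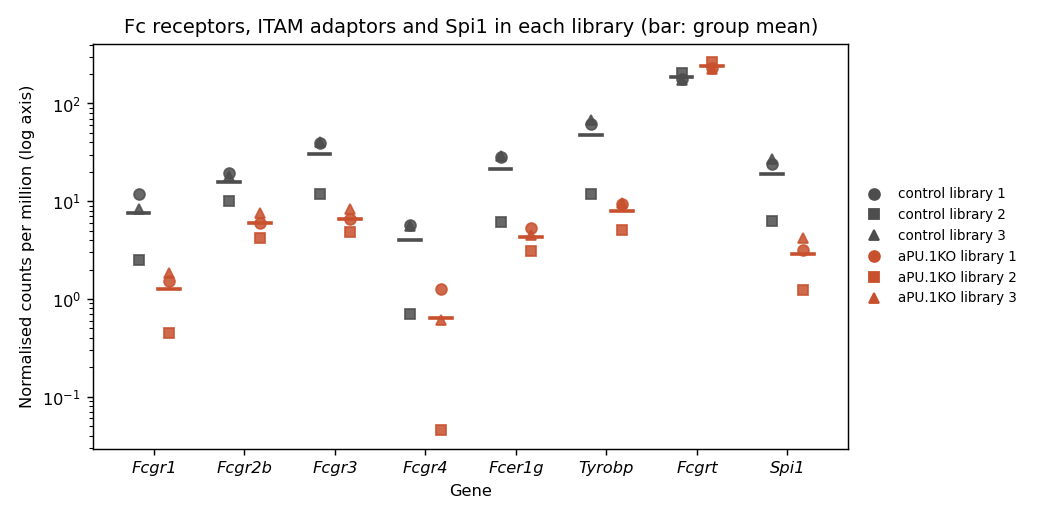
CPM (log axis) of the 7 members and of Spi1 in each of the 6 libraries, control in grey and aPU.1KO in orange, with a bar for each group mean. Control library 2 (grey square) is the lowest control for every gene but Fcgrt, where it is the highest at 205 CPM.

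Among the activating receptors, Fcgr3 was the most abundant per length. It encodes the low-affinity receptor for IgG complexes. Fcgr3 was counted at 39.5, 11.9 and 40.3 CPM in control libraries 1 to 3 and at 6.56, 4.88 and 8.38 CPM in aPU.1KO libraries 1 to 3. The groups did not overlap, but control library 2 was nearer to the highest aPU.1KO library than to the other controls. Its log2 fold change was -2.21 (SE 0.48, edgeR adjusted p = 0.0783). Over all alternatives the adjusted p ran from 3.79e-05 with DESeq2 to 0.313. Without control library 2 the log2 fold change was -2.60 with an edgeR adjusted p of 0.00343.

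Fcgr1, the high-affinity receptor that also binds monomeric IgG, was at 12.0, 2.50 and 8.33 CPM in the controls. In aPU.1KO it was at 1.52, 0.452 and 1.85 CPM. The lowest control and the highest aPU.1KO library were again close, and the groups did not overlap. The log2 fold change was -2.59 (SE 0.68, edgeR adjusted p = 0.0922), and it was -3.01 without control library 2 (edgeR adjusted p = 0.0213). The adjusted p ran from 0.00132 with DESeq2 to 0.351 over all alternatives.

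Fcgr4, a receptor of intermediate affinity for the IgG2 subclasses, was the sparsest of the receptors in CPM. Its control libraries held 418, 16 and 140 counts, or 5.76, 0.700 and 5.55 CPM. The aPU.1KO libraries held 25, 1 and 13 counts, or 1.27, 0.0452 and 0.616 CPM. Control library 2 thus lay below aPU.1KO library 1, and the exact 95% Poisson interval of the single count in aPU.1KO library 2 spanned 0.00114 to 0.252 CPM. This interval covers counting error only. The log2 fold change of -2.67 had an SE of 1.01 and an edgeR adjusted p of 0.162, and without control library 2 it was -3.16 (edgeR adjusted p = 0.0606). DESeq2 placed it just inside the threshold at an adjusted p of 0.0479, and the range over all alternatives was from there to 0.455.

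The inhibitory receptor Fcgr2b was at 19.6, 9.94 and 18.0 CPM in the controls and at 6.00, 4.25 and 7.63 CPM in aPU.1KO. All aPU.1KO libraries lay below all controls. The log2 fold change of -1.42 (SE 0.32, edgeR adjusted p = 0.0784) was the smallest in size of the 6 lower members. Without control library 2 it was -1.67 (edgeR adjusted p = 0.0154), and the adjusted p ran from 0.000573 with DESeq2 to 0.313 over all alternatives. A stretch of 509 bases of the Fcgr3 transcript, 37.8% of its length, was 96.5% identical to Fcgr2b, so that the estimated counts of the pair may share reads. Also, 155 exon bases of Fcgr2b overlap Gm38204 on the opposite strand, and whether reads were assigned by strand is not given in the sources used here.

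Per length, the balance between activating and inhibitory receptors can be read within each library without regard to its depth. Fcgr3 was 2.32, 1.37 and 2.57 times the level of Fcgr2b (CPM per kilobase) in control libraries 1 to 3. In aPU.1KO the ratio was 1.26, 1.32 and 1.26. Every aPU.1KO ratio lay below every control ratio, with a mean difference of -0.65 on the log2 scale, and control library 2 lay close to the aPU.1KO libraries. The Fcgr1 to Fcgr2b ratio was 0.359, 0.147 and 0.272 in the controls and 0.149, 0.0625 and 0.142 in aPU.1KO, where aPU.1KO library 1 lay just above control library 2. For Fcgr4 over Fcgr2b the values were 0.356, 0.0853 and 0.373 in the controls and 0.256, 0.0129 and 0.0977 in aPU.1KO, with overlap. The 0.0129 rests on the single Fcgr4 count, with an interval of 0.000323 to 0.0735. The sum of the 3 activating receptors over Fcgr2b was 3.03, 1.60 and 3.21 in the controls and 1.66, 1.39 and 1.50 in aPU.1KO, so that this total balance overlapped between the groups. These ratios are a description with no test, and in the 3 of single receptors the second library of each group was the lowest, apart from Fcgr3 over Fcgr2b in aPU.1KO.

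**Figure D2:**
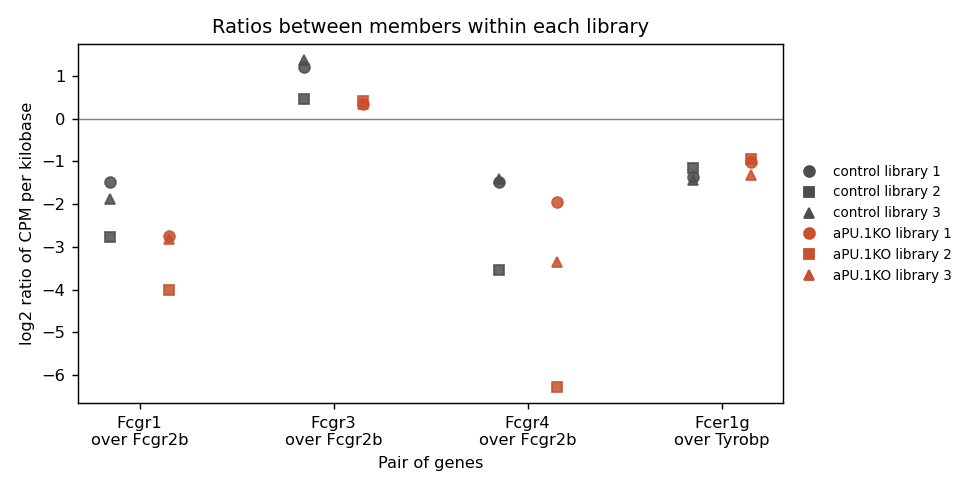
Log2 ratios of CPM per kilobase between pairs of members in each library (circle, square and triangle for libraries 1, 2 and 3), control in grey and aPU.1KO in orange. Fcgr3 over Fcgr2b separates the groups, with the aPU.1KO libraries at 0.33 to 0.40, while the other pairs overlap.

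For both adaptors control library 2 was again the lowest control and aPU.1KO library 2 the lowest of all. Fcer1g, the FcR gamma chain that the activating receptors need to reach the surface, was at 28.4, 6.13 and 29.1 CPM in the controls. The aPU.1KO libraries held 5.34, 3.12 and 4.55 CPM of it. Control library 2 was only slightly above aPU.1KO library 1. The log2 fold change was -2.30 (SE 0.58, edgeR adjusted p = 0.0873). It was -2.74 without control library 2 (edgeR adjusted p = 0.00329), and the adjusted p ran from 0.000352 with DESeq2 to 0.335 over all alternatives.

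Tyrobp was the most abundant of the 6 lower members per length. Controls were at 62.3, 11.7 and 67.9 CPM and aPU.1KO libraries at 9.30, 5.11 and 9.66 CPM, without overlap. The log2 fold change was -2.57 (SE 0.64, edgeR adjusted p = 0.0868; 0.0102 with DESeq2). Without control library 2 it was -3.03 (edgeR adjusted p = 0.00383, the lowest of all alternatives, the highest being 0.324). Fcer1g over Tyrobp per length was 0.390, 0.447 and 0.367 in the controls and 0.491, 0.522 and 0.403 in aPU.1KO. These ratios overlapped between the groups and varied far less than either gene.

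Fcgrt went the other way. It was at 179, 205 and 175 CPM in the controls and at 230, 263 and 224 CPM in aPU.1KO, with no overlap. The second library of each group, lowest in its group for all other members, was here the highest. The log2 fold change was 0.36 (SE 0.10, edgeR adjusted p = 0.102), and 0.42 without control library 2 (edgeR adjusted p = 0.0625). DESeq2 gave 0.35 with an adjusted p of 0.0391, and the adjusted p over all alternatives reached 0.400. The direction held when each library was left out in turn, between 0.28 and 0.42.

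**Figure D3:**
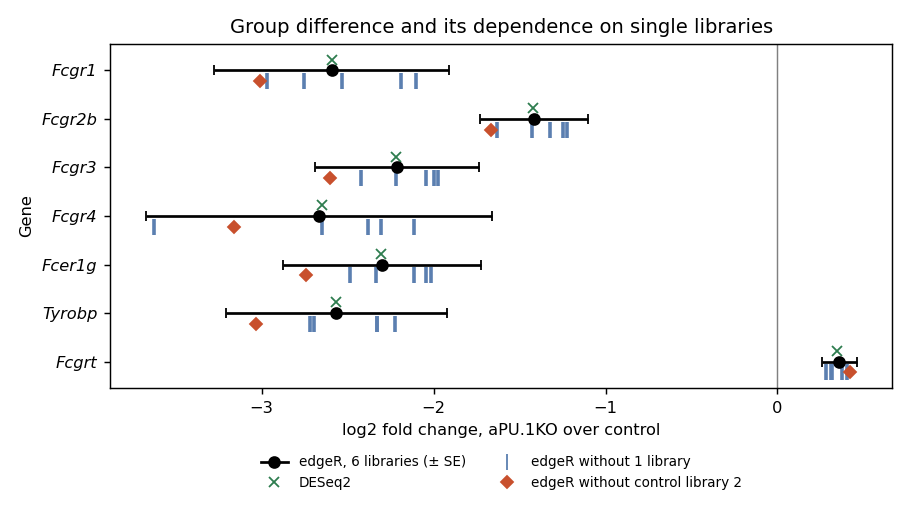
Log2 fold change of each member, aPU.1KO over control, from edgeR with all 6 libraries (black point, bar for the standard error), from DESeq2 (green cross) and from edgeR with 1 library left out (blue ticks, orange diamond for control library 2). No member changes sign; Fcgr4 spreads most, from -3.63 to -2.12.

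On a per-kilobase scale the control means were ordered as Fcgrt (157 CPM per kilobase), Tyrobp (81.5), Fcer1g (31.3), Fcgr3 (23.1), Fcgr2b (10.4), Fcgr4 (3.19) and Fcgr1 (2.93). The aPU.1KO means kept that order, at 201, 13.8, 6.39, 4.99, 3.92, 0.513 and 0.492 CPM per kilobase. The last pair in the order, Fcgr4 and Fcgr1, did not differ beyond the spread: Fcgr1 was above Fcgr4 in control libraries 1 and 2 and below it in control library 3. In control library 2, Fcer1g (9.03) and Fcgr3 (8.96) were also level. Among all genes tested, Tyrobp went from the 90.8 percentile of CPM per kilobase in the controls to the 60.8 percentile in aPU.1KO, and Fcgr3 from 72.5 to 38.3. Fcgrt stayed at 95.6 and 96.4.

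The lower members were then set against the macrophage markers, 17 of 18 of which had an unadjusted p under 0.05 as lower and 1 of which, Mrc1, passed an adjusted p of 0.05 with edgeR (log2 fold change -1.70, adjusted p = 0.0389). The median log2 fold change of this list was -2.09, against 0.01 over all genes. None of the 18 was at 0 counts in every library: the summed level ran from 572 to 2053 CPM in the controls and from 262 to 389 CPM in aPU.1KO, so that macrophage RNA was present in all 6 libraries. Adgre1, the F4/80 antigen, was at 129, 26.2 and 115 CPM in the controls and at 21.3, 7.96 and 15.7 CPM in aPU.1KO. Cd163, a scavenger receptor of resident macrophages, had a log2 fold change of 0.29 and overlapping groups. DESeq2 called 17 of the 18 lower, as did edgeR without control library 2.

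Each member was then read relative to the mean log2 CPM of the 18 markers in the same library. With all 6 libraries, the 6 lower members overlapped between the groups on this scale. Their mean differences, aPU.1KO minus control in log2 units, are given with the range over fits that left out 1 library each: -0.68 (-0.98 to -0.23) for Fcgr1, -0.26 (-0.39 to -0.17) for Fcgr3 and -0.88 (-1.57 to 0.021) for Fcgr4. For Fcer1g the value was -0.24 (-0.46 to -0.063), for Tyrobp -0.47 (-0.78 to -0.24) and for Fcgr2b 0.39 (0.26 to 0.60). The value of Fcgr4 above 0 was the one without aPU.1KO library 2, which held its single count. The overlap rested in part on control library 2: without it Fcgr1, Fcer1g and Tyrobp were lower in every aPU.1KO library, Fcgr2b was higher in every one, and Fcgr3 and Fcgr4 still overlapped. Without aPU.1KO library 3, Fcgr1 and Fcgr3 did not overlap. Relative to 10 endothelial and to 7 stromal markers the 6 members also overlapped with all libraries, and without control library 2 all 6 were lower in every aPU.1KO library on both scales. For Fcgr3 the mean difference was -1.50 against the endothelial and -0.86 against the stromal list, and for Tyrobp it was -1.71 and -1.07. Relative to the 10 adipocyte markers 5 of the 6 did not overlap. Their mean differences were -2.87 (-3.60 to -2.23) for Fcgr1, -1.80 (-2.17 to -1.52) for Fcgr2b and -2.45 (-3.10 to -2.12) for Fcgr3. For Fcer1g the value was -2.43 (-3.23 to -2.01) and for Tyrobp -2.66 (-3.55 to -2.18). Fcgr4 overlapped unless control library 2 or aPU.1KO library 1 was left out. The part of the macrophage content in the result was not tested.

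Fcgrt was set against the adipocyte markers in the same way. Of these 10 genes, 6 were higher at an unadjusted p under 0.05 and 1, Lep, was lower. By edgeR none had an adjusted p under 0.05. DESeq2 called 6 of them higher. Their median log2 fold change was 0.38. Fcgrt minus the mean log2 CPM of the list was -4.04, -4.04 and -4.06 in the controls and -4.19, -4.09 and -4.05 in aPU.1KO. On this scale the groups overlapped and the mean difference was -0.06. Without control library 3 (-0.067) or without aPU.1KO library 3 (-0.090) Fcgrt was lower in every aPU.1KO library than in every control. Relative to the macrophage list, Fcgrt was higher in every aPU.1KO library than in every control, with a mean difference of 2.13. The same held relative to the endothelial (0.90) and stromal (1.53) lists. On these scales the groups also stayed apart with each library left out in turn.

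**Figure D4:**
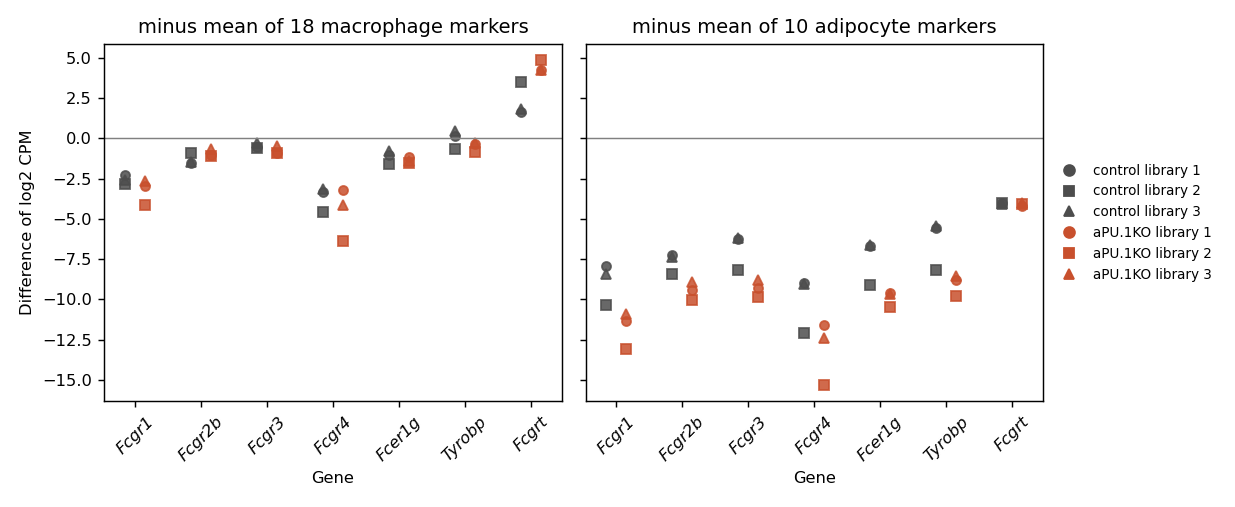
Log2 CPM of each member minus the mean log2 CPM of 18 macrophage markers (left) or of 10 adipocyte markers (right) in the same library. With all 6 libraries, the 6 receptors and adaptors other than Fcgrt overlap between the groups on the left, where control library 2 (grey square) is among the values that make them overlap, and on the right Fcgrt overlaps, near -4.1.

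The genes that transmit the signal of the receptors were read from a list of 35 kinases, adaptors and oxidase subunits, all of which passed the filter on low counts. At an unadjusted p under 0.05, 30 of them were lower and 0 higher, and 0 passed an adjusted p of 0.05 with edgeR. DESeq2 called 28 lower and 0 higher, and edgeR without control library 2 called 29 lower and 0 higher. The median log2 fold change was -2.07. The largest differences were those of Lat2 and Blnk, both adaptors downstream of Syk family kinases (-2.67 and -2.66), the kinase Btk (-2.65), Dock2, which activates Rac (-2.54), and Ncf4, a subunit of the phagocyte oxidase (-2.39). Their edgeR adjusted p-values were 0.0792, 0.0783, 0.0764, 0.0786 and 0.0856.

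Others are named here for their role, after their values were seen. Syk, the kinase that docks on the phosphorylated ITAM, was at 57.8, 17.3 and 52.0 CPM in the controls and at 13.2, 4.20 and 11.3 CPM in aPU.1KO (log2 fold change -2.16, SE 0.56, edgeR adjusted p = 0.0902). Inpp5d, the phosphatase SHIP1 that Fcgr2b recruits, had a log2 fold change of -2.18 (edgeR adjusted p = 0.0783). Of the Src family kinases, Fgr had a log2 fold change of -1.70, Fyn of -1.07 and Lyn of -0.72. Bcl10, at -0.12, and Plcg1, at 0.13, had the values nearest to 0, and neither had an unadjusted p under 0.05.

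Receptors that borrow Tyrobp or Fcer1g for signalling formed a list of 20, of which 11 passed the filter. At an unadjusted p under 0.05, 9 of these were lower and 0 higher, 0 passed an adjusted p with edgeR, and DESeq2 called 9 of the 20. Clec7a, the beta-glucan receptor Dectin-1, which signals through its own ITAM-like motif and is grouped here for that pathway, was at 47.0, 7.49 and 54.6 CPM in the controls and at 4.32, 2.08 and 4.93 CPM in aPU.1KO (log2 fold change -3.28, SE 0.74, edgeR adjusted p = 0.0786). Trem2, the lipid-sensing partner of Tyrobp, was at 66.5, 8.93 and 74.1 CPM against 6.91, 1.58 and 7.44 CPM (log2 fold change -3.24, SE 0.87, edgeR adjusted p = 0.0942). Clec4d, a C-type lectin that uses Fcer1g, had a log2 fold change of -3.27 (SE 1.00) with overlapping groups. Cd300ld and Cd300lb, of a lipid-binding receptor family, had values of -2.81 and -2.79. The 9 genes that did not pass the filter were at 0.833 CPM or less in every library.

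Receptors of inhibitory families formed a list of 15, called ITIM receptors here, though not all of them carry an ITIM. The motif was not checked in each. All 15 passed the filter, and 12 of them had an unadjusted p under 0.05 as lower and 0 as higher, with 0 past an adjusted p by edgeR and 12 called by DESeq2. The median log2 fold change was -2.42. The 5 largest were Milr1 (-2.81), Lilr4b (-2.79), Cd72 (-2.53), Clec12a (-2.52) and Cd300a (-2.51). Pecam1, named after its values were seen, which carries an ITIM and is abundant on endothelium, had a log2 fold change of -0.53 and overlapping groups.

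**Figure D5:**
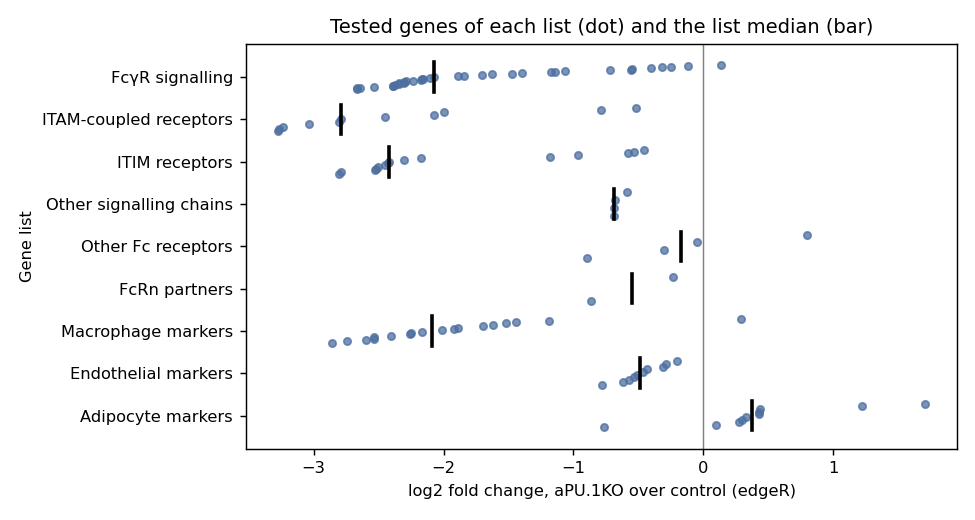
Log2 fold change, aPU.1KO over control, of every tested gene of 9 lists (dots), with the list median as a black bar. The medians of the signalling, ITAM-coupled, ITIM and macrophage lists lie between -2.79 and -2.07, and that of the adipocyte markers at 0.38.

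Other Fc receptors and signalling chains were read in the same way. Of 12 other Fc receptors 4 passed the filter, and 2 were lower at an unadjusted p under 0.05. Fcrls, an Fc receptor-like scavenger receptor, was at 10.2, 8.49 and 7.89 CPM in the controls and at 3.91, 5.20 and 5.16 CPM in aPU.1KO (log2 fold change -0.90, SE 0.18, edgeR adjusted p = 0.0764; 0.000702 with DESeq2). Here control library 2 lay between the other controls. Trim21, a cytosolic IgG receptor present in most cells, had a log2 fold change of -0.30 (edgeR adjusted p = 0.190). Of 7 other signalling chains, which are ITAM chains of lymphocytes and the adaptor Hcst, 4 passed the filter and 0 passed an unadjusted p of 0.05. Cd247, the T cell receptor zeta chain, which also serves Fc receptors in natural killer cells, was at 4.10, 3.85 and 4.05 CPM against 1.58, 3.48 and 2.89 CPM (log2 fold change -0.59, edgeR adjusted p = 0.258). Hcst, also called DAP10, which signals through another motif than an ITAM and lies 0.127 kilobases from Tyrobp, did not pass the filter, with 0.909, 0.0876 and 1.47 CPM in the controls and 0.0508, 0.136 and 0.189 CPM in aPU.1KO.

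Both partners of FcRn had values of the opposite sign to Fcgrt. B2m, its light chain, was at 2124, 1628 and 2614 CPM in the controls and at 2007, 1468 and 1939 CPM in aPU.1KO (log2 fold change -0.23, SE 0.21, edgeR adjusted p = 0.521). The groups overlapped. Fcgrt over B2m per length was 0.0611, 0.0911 and 0.0485 in the controls and 0.0829, 0.130 and 0.0838 in aPU.1KO, with overlap and a mean difference of 0.58 on the log2 scale. Alb, the mRNA of the FcRn ligand albumin, was at 32.1, 46.1 and 26.0 CPM against 19.4, 21.9 and 15.9 CPM (log2 fold change -0.86, SE 0.23, edgeR adjusted p = 0.0916). Alb was 1 of 8 hepatocyte markers, all of which were lower in every aPU.1KO library and 2 of which, Apoa1 and Ttr, passed an adjusted p of 0.05 with edgeR. Their summed level was 41.7 to 65.4 CPM in the controls and 18.7 to 24.9 CPM in aPU.1KO.

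The genes whose pattern over the 6 libraries was most like that of each member were found by the root mean square difference of centred log2 CPM among 11897 genes. The nearest to Fcgr3 was Alox5ap, which serves leukotriene synthesis (difference 0.0750), followed by Was and Cyba. The nearest to Fcer1g was Ncf4 (0.0778), then Rac2 and Plek. To Tyrobp it was Ms4a7 (0.0923), then Cd300a and Blnk. Fcgr2b was followed by Ccdc88b (0.0898), Tns3 and Fbln1, and Fcgr1 by Slamf7 (0.134), Nceh1 and Gm49339. For Fcgr4 they were Ubd (0.312), Itgax and Myo1f, and for Fcgrt Timm29, a mitochondrial import factor (0.00952), Vmac and H1f0. The measure shrinks with a gene's own spread, so that its size is not comparable between members. Between Fcer1g and Tyrobp the difference was 0.184.

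Genes next to the members on the chromosome had values of both signs. Within 100 kilobases, 41 other genes were tested, of which 4 had an unadjusted p under 0.05 as lower and 8 as higher, with a median log2 fold change of 0.12. Over all genes the shares were 13.7% lower and 11.9% higher. Apoa2, 3.19 kilobases from Fcer1g, had a log2 fold change of -2.86 (edgeR adjusted p = 0.0724). Nfkbid, an inhibitor of NF-kappa-B 4.15 kilobases from Tyrobp, had -2.34 (edgeR adjusted p = 0.0724), and Rcn3, 0.769 kilobases from Fcgrt, had -0.94 (edgeR adjusted p = 0.0786). Of the higher neighbours, Sdhaf1, 89.9 kilobases from Tyrobp, had 0.43 (edgeR adjusted p = 0.0902). Rras, 71.3 kilobases from Fcgrt, had 0.37 (edgeR adjusted p = 0.0786). The neighbours named were chosen after their values were seen.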

How the data were processed

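RNA from the epididymal adipocyte fraction of 3 control and 3 aPU.1KO mice was compared, 1 library per mouse. The authors quantified reads with Salmon against GRCm38 and deposited estimated counts per gene, summed over transcripts, as whole numbers without normalization; the Salmon version and annotation are not given in the sources used here. All deposited estimated counts entered the tests as they were. Genes without a symbol (0.00188% of counts) stayed in the table. Replicates differed beyond sampling noise (chi-square over its degrees of freedom between 20.4 and 96.9). Total counts were 20550252 to 69283842, and an exact permutation test of 3 against 3 cannot go below p = 0.1.

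The main test was the quasi-likelihood F test of edgeR 4.0.16 under R 4.3.3, with filterByExpr, TMM and glmQLFit defaults, over 13925 genes, with Benjamini-Hochberg adjustment. A floor is 3 counts. Log2 CPM used a prior count of 2, and levels per kilobase used the median protein-coding transcript length in GENCODE M21. Similar transcripts were found with BLAST 2.17.0. The members and lists were chosen with earlier results of these data known. The genes named are all members, Spi1, the 5 largest absolute log2 fold changes of each pathway list (average log2 CPM 1 or higher), and the 3 genes nearest in pattern to each member. Cell type markers and any other gene named were chosen after their values were seen. Alternatives were RLE and upper quartile scaling, other filters, DESeq2 1.42.0, limma-voom (limma 3.58.1), robust dispersion, legacy = FALSE, each library left out in turn, and the deepest library thinned. Leaving out libraries for the levels relative to marker lists was added after seeing the data. The code was tested on simulated data. Results for some genes were left out of the text.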

Additional observations from a re-analysis of the deposited data

How the results depend on the processing

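With 3 mice per group and 1 control library apart from the others, calls by an adjusted p moved with the tool and with single libraries, while the direction of all 7 members held under every alternative. The count of all genes called was 33 with edgeR. It was 5 with at least 10 counts required in every library, 146 without a filter and 1833 with DESeq2, and 0 (without control library 1) to 1193 (without control library 2) with 1 library left out. The cause was not tested. The members passed an adjusted p of 0.05 with DESeq2, with log2 fold changes of -2.59 for Fcgr1, -1.42 for Fcgr2b, -2.22 for Fcgr3, -2.65 for Fcgr4, -2.30 for Fcer1g, -2.57 for Tyrobp and 0.35 for Fcgrt. With 1 library left out the log2 fold changes ran from -3.01 to -2.10 for Fcgr1, -1.67 to -1.23 for Fcgr2b, -2.60 to -1.97 for Fcgr3, -3.63 to -2.12 for Fcgr4, -2.74 to -2.02 for Fcer1g, -3.03 to -2.22 for Tyrobp and 0.28 to 0.42 for Fcgrt. Fcgr1, Fcgr2b, Fcgr3, Fcer1g and Tyrobp passed an adjusted p of 0.05 without control library 2 and in no other such fit. Fcgr4 could not be tested with at least 10 counts in every library. At an unadjusted p under 0.05, limma-voom had 4 members as lower and 1 as higher. Its unadjusted p was 0.0517 for Tyrobp and 0.066 for Fcgr4. By edgeR with 1 library left out, 5 or 6 members were lower at that threshold.

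EdgeR called 0 genes in each of the pathway lists. DESeq2 called 1 other Fc receptor, 9 ITAM-coupled receptors, 12 ITIM receptors and 28 signalling genes, and edgeR without a filter called 1 ITAM-coupled receptor and 2 signalling genes. Counts at an unadjusted p under 0.05 moved too. With limma-voom 7 ITIM receptors and 6 ITAM-coupled receptors were lower, against 12 and 9 with edgeR, while the signalling genes stayed at 30. With 1 library left out the counts ran from 0 to 1 for other Fc receptors and for other signalling chains, from 0 to 9 for ITAM-coupled receptors, from 0 to 12 for ITIM receptors and from 0 to 29 for signalling genes, with the highest each time without control library 2. The median of 5 mesothelial markers was -0.54, ran from -0.95 to 0.022 with 1 library left out, and was above 0 only without control library 2. The differences of the log2 ratios with 1 library left out were -0.93 to -0.48 for Fcgr3 over Fcgr2b and -2.66 to -0.50 for Fcgr4 over Fcgr2b. No paired analysis was made, because the labels do not give litters and tie no control mouse to an aPU.1KO mouse.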

Other observations

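Antibody mRNAs, the source of the ligand of these receptors, were read beside them. Ighm, the heavy chain of IgM, was at 863, 778 and 1067 CPM in control libraries 1, 2 and 3 and at 821, 818 and 684 CPM in aPU.1KO libraries 1, 2 and 3, with a log2 fold change of -0.22 (edgeR adjusted p = 0.388). In the same libraries the B cell receptor chain Cd79a was at 0.723 to 1.67 CPM. The light chain Igkc was at 85.1, 10.2 and 173 CPM in the controls and at 15.8, 10.5 and 8.76 CPM in aPU.1KO (log2 fold change -2.94, SE 0.89, edgeR adjusted p = 0.112), with overlapping groups. Jchain, which joins secreted IgM and IgA, was at 23.3, 2.71 and 44.9 CPM against 8.23, 3.75 and 3.36 CPM. The IgG heavy chains were scarce, with Ighg2c at 2.71, 0.0438 and 3.49 CPM in the controls and 0.254, 0.452 and 0.142 CPM in aPU.1KO. For Igkc, Jchain and Ighg2c control library 2 was again far below the other controls. These genes were named after their values were seen.

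Marker lists of other cells were counted in the same way. At an unadjusted p under 0.05, genes were lower in 3 of 5 tested monocyte, 2 of 3 neutrophil, 1 of 4 dendritic cell, 3 of 4 mast cell, 2 of 4 T cell, 0 of 4 B cell, 5 of 7 stromal, 2 of 10 endothelial and 0 of 5 mesothelial markers, and none of these was higher. Over all genes the shares were 13.7% lower and 11.9% higher. Whether each gene marks only its named cells in this fraction was not tested. In the monocyte list Hp was at 2606 to 6258 CPM and Ccr2 at 3.98 to 24.9 CPM. In the mast cell list Kit was at 7.29 to 16.4 CPM and Cpa3 at 0.219 to 1.35 CPM. None of the 7 natural killer cell markers passed the filter. The neutrophil gene Retnlg had 0 counts in all libraries, and Ly6g and Ngp had 3 counts or fewer in every library.

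Itgax, which encodes CD11c, was at 77.7, 13.9 and 70.4 CPM in the controls and at 10.5, 1.99 and 10.2 CPM in aPU.1KO (log2 fold change -2.85, SE 0.79, edgeR adjusted p = 0.0994). Zbtb46, a transcription factor of dendritic cells, had a log2 fold change of -0.06 with overlapping groups. Both were named after their values were seen.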
